A study of Mus musculus with 12 samples.

Results

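The p53 tumour suppressor gene Trp53, its inhibitor Mdm4 and 7 genes that p53 activates (Cdkn1a, Ccng1, Bax, Bbc3, Sesn1, Phlda3 and Zmat3) were measured in the mouse 3T3-L1 line. The cells were untreated or driven toward fat cells, the latter with or without the plant flavonoids luteolin and quercetin. These 9 genes were picked by name from the 54532 genes of the deposited count table, and all 9 were among the 14855 genes with enough counts to be tested. RNA was sequenced from 12 libraries, 3 in each of 4 groups, all collected on day 6. 3T3-L1 is an established line of mouse preadipocytes, fibroblast-like cells that can be turned into adipocytes in culture, and every group carried the wild-type genotype.

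The 4 groups were luteolin with DMI, quercetin with DMI, DMI alone, and untreated preadipocytes. DMI is the differentiation cocktail of 1 uM dexamethasone, 0.5 mM IBMX (3-isobutyl-1-methylxanthine, which raises cyclic AMP) and 10 ug/ml insulin, given to confluent cells in serum until day 2, with insulin alone for 2 more days and serum medium after that. The protocol text is the same for the untreated libraries, so their untreated state rests on their titles and treatment label. The doses of luteolin and quercetin and the days on which they were given are not stated in the labels. Luteolin is a flavone, and quercetin is the flavonol that differs from it by an added hydroxyl group. The labels do not tell whether the replicates were separate cultures, so every p-value measures only the spread between these libraries, which may be technical.

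p53 is a transcription factor that is made continually and destroyed continually. Mdm2 tags the p53 protein for degradation, Mdm4 masks its activating domain, and stress frees p53 from both. Because that control acts mostly on the protein, the mRNA of Trp53 need not follow p53 activity, which is read more directly from the target genes. Among those targets p21 (Cdkn1a) stops the cell cycle, Bax and Puma (Bbc3) open the mitochondrial route to cell death, sestrin 1 (Sesn1) restrains mTORC1, Phlda3 restrains Akt, and cyclin G1 (Ccng1) and the RNA-binding zinc finger protein Zmat3 feed back on the response. In 3T3-L1 cells the DMI cocktail is known to start a short burst of division before the cells leave the cell cycle and fill with lipid.

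p53 binds DNA as a tetramer, at a pair of adjoining decamers known as the p53 consensus. RefSeq promoters of the genes (build GRCm38.p6, 250 bases before to 50 after each start) were searched on both strands for that pair. Of the 9 genes 8 had an entry, with 13 windows in all; Zmat3 had none. A 20-base pair with at most 3 mismatches was found in 5 of the 13 windows, those of Trp53, Cdkn1a, Ccng1, Bbc3 and Sesn1, and in 1.38% of all 32851 promoter windows; this limit of 3 mismatches was chosen after the sequences were seen. A looser core that such a pair contains, CNNG then NNNNNN then CNNG, was present in 12 of the 13 windows and in 70.2% of all windows. An exact single decamer occurred in 5 of the 13 windows and in 8.36% of all windows, and it may overlap the longer matches. The matched 20 bases of each gene are shown 5′ to 3′ on the strand of the gene, with the invariant C and G of each decamer in capitals.
Trp53, chr11:69580284-69580303 (plus strand): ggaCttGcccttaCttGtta
Cdkn1a, chr17:29090928-29090947 (plus strand): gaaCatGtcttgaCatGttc
Ccng1, chr11:40755462-40755481 (minus strand): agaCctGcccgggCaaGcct
Bbc3, chr7:16309486-16309505 (plus strand): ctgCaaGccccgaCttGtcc
Sesn1, chr10:41887266-41887285 (plus strand): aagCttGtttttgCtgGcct

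The Ccng1 and Cdkn1a matches each departed from the consensus at 1 base, whereas those of Trp53, Bbc3 and Sesn1 departed at 3. The Cdkn1a match began at position -51 and the Ccng1 match at position -195 relative to the RefSeq start of the window that holds it. Cdkn1a, Sesn1 and Bbc3 have further windows at other starts, and these held no pair within the limit of 3 mismatches. Whole windows are given for Trp53 and Sesn1, whose mRNA passed the test in DMI cells, and for Cdkn1a, which holds a near-complete match. Capitals mark the 20 matched bases. A match of letters is a description and does not show that p53 was bound there.
Trp53 promoter, chr11:69580109-69580408 (plus strand): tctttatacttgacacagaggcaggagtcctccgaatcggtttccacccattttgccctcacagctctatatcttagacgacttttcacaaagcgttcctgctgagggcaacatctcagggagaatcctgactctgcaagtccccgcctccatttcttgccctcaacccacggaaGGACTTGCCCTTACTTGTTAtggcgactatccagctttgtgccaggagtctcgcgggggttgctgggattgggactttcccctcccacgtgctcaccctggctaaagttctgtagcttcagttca
Cdkn1a promoter, chr17:29090729-29091028 (plus strand): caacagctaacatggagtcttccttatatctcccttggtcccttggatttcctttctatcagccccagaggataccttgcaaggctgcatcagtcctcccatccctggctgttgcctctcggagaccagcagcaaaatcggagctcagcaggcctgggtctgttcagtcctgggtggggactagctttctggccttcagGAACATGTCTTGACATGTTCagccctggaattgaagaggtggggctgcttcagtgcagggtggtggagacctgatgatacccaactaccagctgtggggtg
Sesn1 promoter, chr10:41887189-41887488 (plus strand): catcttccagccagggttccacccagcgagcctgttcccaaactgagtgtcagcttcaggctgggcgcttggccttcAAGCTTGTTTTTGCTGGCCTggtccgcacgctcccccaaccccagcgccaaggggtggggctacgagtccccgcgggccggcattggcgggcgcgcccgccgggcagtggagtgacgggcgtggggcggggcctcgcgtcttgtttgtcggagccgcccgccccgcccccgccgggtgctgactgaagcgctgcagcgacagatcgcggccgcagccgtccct

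Library totals lay between 14522182 and 19436796 counts. In each induced group the third library stood apart from the first pair, so calls are also given without these 3 libraries, called the third induced libraries. Such fits rest on only the first pair in each induced group. In the quercetin group 45.3% of tested genes differed by more than 0.5 on the log2 scale between the third library and the mean of the first pair. The same share was 22.0% in the luteolin group, 34.7% in the DMI group and 10.8% in untreated cells. Adipocyte genes moved with it. The summed level of 8 mature adipocyte markers (Adipoq, Fabp4, Plin1, Cidec, Lpl, Cd36, Lipe and Pnpla2) was 13020, 14470 and 6024 counts per 1000000 (CPM) in the luteolin libraries, 7508, 7329 and 3318 CPM in the quercetin libraries, 21300, 23850 and 6656 CPM in the DMI libraries and 728.8 to 755.8 CPM in untreated libraries. All 8 markers rose in DMI against untreated cells, and 5 of 6 preadipocyte and fibroblast markers fell, with sums of 19100 to 26730 CPM in DMI libraries and 38450 to 40160 CPM in untreated ones. Lpl alone, at 678.5, 701.6 and 674.6 CPM, made up most of the sums in untreated libraries. Adipoq, Fabp4, Plin1, Cidec and Cd36 had untreated means of only 0.685 to 3.66 CPM. None of the 8 adipocyte markers was at 0 in any library. Of 9 markers of macrophages, endothelium, epithelium and muscle 1 had enough counts to be tested. Mitochondrial genes took 2.87% to 4.72% of counts in DMI libraries and 1.85% to 1.91% in untreated ones.

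The 9 genes were expressed in all 12 libraries, with raw counts from 251 (Bbc3) to 6854 (Ccng1). Set against gene length, Ccng1 was the most abundant, at a mean of 68.7 CPM per kilobase over the 12 libraries. Phlda3 followed at 52.0, Bax at 30.1, Cdkn1a at 27.9 and Trp53 at 21.6 CPM per kilobase. Sesn1 and Bbc3 had 11.3 and 10.7 CPM per kilobase, while Zmat3 and Mdm4 were lowest at 7.70 and 7.53. Neighbours in that order, such as Bax and Cdkn1a or Zmat3 and Mdm4, were close, and their order was not tested. The authors' deposited FPKM values ranked the 9 genes in the same order, but FPKM also divides counts by gene length and library total. The shared order is therefore not a separate check. The level of Mdm2, the ubiquitin ligase paralogous to Mdm4, was far higher. Mdm2 ranked 9 of 14855 genes by mean CPM, and its level per kilobase was 98.1 to 174 times that of Mdm4 within single libraries.

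**Figure D1:**
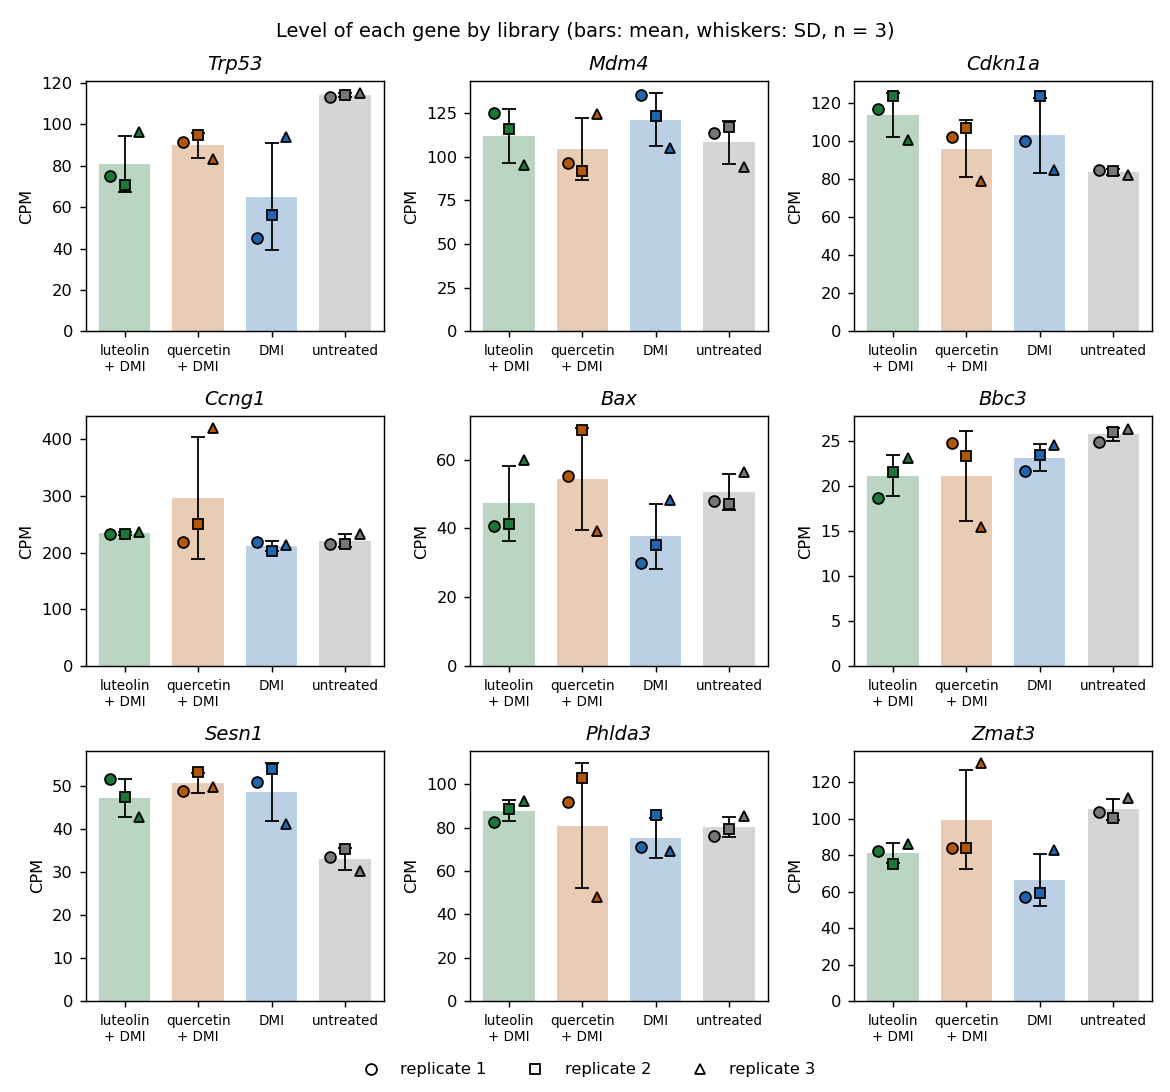
Level of each of the 9 genes in CPM (counts per 1000000 of TMM-adjusted library totals) in the 3 libraries of each group; bars are group means, whiskers are SD (n = 3), and circles, squares and triangles are replicates 1, 2 and 3. Trp53 was 45.0, 56.2 and 94.1 CPM in DMI libraries against 113.1 to 115.1 CPM in untreated libraries, and Sesn1 was above its untreated level in every induced library.

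DMI alone against untreated cells asks how the p53 genes stood once cells had been driven toward adipocytes. Trp53 itself and Zmat3 fell, Sesn1 rose, and the other 6 genes did not pass the test. Called genes were thus 3 of 9 (1 higher, 2 lower), while 27.1% of all tested genes passed (14.7% higher, 12.4% lower), so the share among the 9 was near the background. The test was edgeR's quasi-likelihood test over all 12 libraries, with Benjamini-Hochberg adjustment over all tested genes and a threshold of 0.05. The median log2 fold change was -0.095 over the 9 genes and -0.041 over all tested genes. In these bulk samples a lower level in every cell and a smaller share of cells that express a gene cannot be told apart.

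Trp53 (chr11:69580359-69591873, plus strand) was at 45.0, 56.2 and 94.1 CPM in DMI libraries, against 113.1, 114.3 and 115.1 CPM in untreated libraries. The groups did not overlap, the untreated libraries were nearly equal, and the third DMI library was 1.86 times the mean of the other DMI libraries. Trp53 fell by 0.81 ± 0.22 on the log2 scale (SE), to 0.571 of the untreated level (adjusted p = 0.0177, edgeR). With the third induced libraries left out the difference was -1.14 (adjusted p = 1.09e-07). The call was lost without the first DMI library (adjusted p = 0.0790), the second DMI library (0.0865) or the third untreated library (0.0680), and over the 12 fits that left out a library the log2 fold change ran from -1.17 to -0.60. The library with the highest Trp53 among the DMI libraries was also the one with the lowest adipocyte marker sum, 6656 CPM. Among luteolin libraries the layout was the same, with Trp53 at 96.4 CPM beside a marker sum of 6024 CPM. Quercetin went the other way: its library with the lowest marker sum, 3318 CPM, had the lowest Trp53 of the group, 83.1 CPM. The part of the marker level in the DMI result was not tested.

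Mdm4 (chr1:132959484-133030561, minus strand), the p53 inhibitor, was at 135.3, 123.5 and 104.8 CPM in DMI libraries, against 113.3, 117.2 and 94.3 CPM in untreated libraries. The groups overlapped, and the third library was the lowest in both. The log2 fold change was 0.16, with a 95% interval from -0.18 to 0.51 (adjusted p = 0.488), and without the third induced libraries it was 0.30 and passed (adjusted p = 0.0163). Its partner Mdm2 was at 4693.5, 4550.2 and 4359.4 CPM in DMI libraries and at 5766.4, 5861.5 and 5631.0 CPM in untreated libraries. These groups did not overlap, yet the difference of -0.34 ± 0.14 did not pass (adjusted p = 0.0940, edgeR); without the third induced libraries it was -0.28 and passed (adjusted p = 0.00805).

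Among the genes of cell-cycle arrest, Cdkn1a (chr17:29090976-29100727, plus strand), which encodes p21, was at 100.4, 124.0 and 84.8 CPM in DMI libraries and at 84.9, 84.6 and 82.2 CPM in untreated libraries. The groups overlapped only through the third DMI library. The log2 fold change of 0.30 did not pass (95% interval -0.04 to 0.64, adjusted p = 0.178), whereas without the third induced libraries it was 0.46 (adjusted p = 0.000485). Ccng1 (chr11:40748552-40755311, minus strand), whose cyclin G1 recruits a phosphatase that acts on Mdm2, was at 218.9, 202.5 and 213.9 CPM in DMI libraries and at 215.6, 215.1 and 234.0 CPM in untreated libraries. Its groups overlapped, and the log2 fold change was -0.07 (95% interval -0.48 to 0.35).

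The pro-apoptotic genes gave no call. Bax (chr7:45461697-45466898, minus strand), the pore-forming member of the Bcl-2 family, was at 29.8, 35.1 and 48.2 CPM in DMI libraries, against 48.0, 47.0 and 56.4 CPM in untreated libraries. The groups overlapped through the third DMI library, the highest of its group. The log2 fold change of -0.42 had a 95% interval from -0.92 to 0.08 (adjusted p = 0.196), and without the third induced libraries it was -0.60 (adjusted p = 0.000564). Bbc3 (chr7:16308393-16318205, plus strand), which encodes Puma, a trigger of Bax, was at 21.6, 23.4 and 24.5 CPM in DMI libraries and at 24.9, 26.0 and 26.3 CPM in untreated libraries. Every DMI library lay below every untreated one, but the difference of -0.15 was within its error (adjusted p = 0.535). Phlda3 (chr1:135766119-135769136, plus strand), an inhibitor of the survival kinase Akt, was at 70.8, 85.6 and 69.1 CPM in DMI libraries and at 76.3, 79.1 and 85.4 CPM in untreated libraries, with a log2 fold change of -0.09 (95% interval -0.56 to 0.37).

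Sesn1 (chr10:41809935-41908424, plus strand), which encodes sestrin 1, an inhibitor of the growth kinase mTORC1, moved the other way. It was at 50.9, 54.1 and 41.1 CPM in DMI libraries, against 33.5, 35.4 and 30.2 CPM in untreated libraries. The groups did not overlap, and the third library was the lowest of both. Sesn1 rose by 0.56 ± 0.13 on the log2 scale (SE), or 1.48-fold (adjusted p = 0.00871, edgeR). The adjusted p was 0.0503 without the second DMI library and under the threshold in the other 11 of 12 fits that left out a library.

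Zmat3 (chr3:32334792-32366014, minus strand), which encodes an RNA-binding zinc finger protein that acts in splicing and mRNA stability, was at 57.1, 59.0 and 82.6 CPM in DMI libraries, against 103.6, 100.2 and 111.6 CPM in untreated libraries. The groups did not overlap, and the third DMI library was 1.42 times the mean of the other DMI libraries. Zmat3 fell by 0.67 ± 0.19 on the log2 scale, to 0.630 of the untreated level (adjusted p = 0.0205, edgeR). The call was lost without the first DMI library (adjusted p = 0.0999), the second DMI library (0.0959), the first untreated library (0.0542) or the third untreated library (0.0974). Zmat3 without the third induced libraries stood at -0.82 (adjusted p = 9.79e-07), and 6 of the 9 genes were then called, against 52.8% of all tested genes in that fit. Over the 9 genes in all 12 libraries, non-overlapping groups were found for 1 gene above (22.7% of all tested genes) and 3 genes below untreated cells (29.4% of all).

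**Figure D2:**
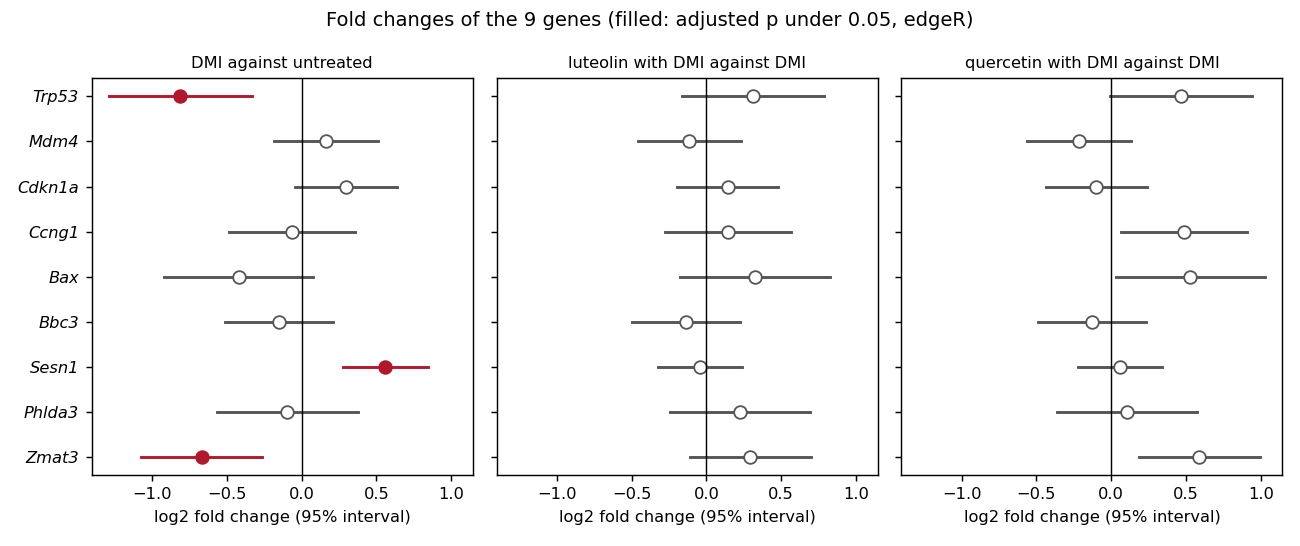
Log2 fold change of each gene (points) with its 95% interval (lines) in DMI against untreated, luteolin with DMI against DMI, and quercetin with DMI against DMI; filled points have an adjusted p under 0.05 in edgeR's quasi-likelihood test. The filled points are Trp53 (-0.81), Sesn1 (0.56) and Zmat3 (-0.67) in DMI against untreated, and the intervals of the quercetin comparison lie above 0 for Ccng1, Bax and Zmat3.

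Luteolin added to DMI was compared with DMI alone. None of the 9 genes passed edgeR's test; at an unadjusted p under 0.05 the count was also 0, against 6.09% of all tested genes, and DESeq2 called 0. Over all genes 3 passed (0.0202%), all lower with luteolin. Trp53 was at 75.1, 70.9 and 96.4 CPM in luteolin libraries and at 45.0, 56.2 and 94.1 CPM in DMI libraries. In both groups the third library was the highest, and the groups overlapped through the third DMI library. Trp53 had a log2 fold change of 0.31, with a 95% interval from -0.16 to 0.79 (adjusted p = 0.941, edgeR). Leaving out the third induced libraries made it 0.56 (adjusted p = 0.00257).

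Zmat3 had a similar layout, at 82.3, 75.0 and 86.2 CPM in luteolin libraries and at 57.1, 59.0 and 82.6 CPM in DMI libraries. Its log2 fold change was 0.29 (95% interval -0.11 to 0.70), and 0.47 without the third induced libraries (adjusted p = 0.00394). Bax was at 40.7, 41.3 and 59.8 CPM in luteolin libraries and at 29.8, 35.1 and 48.2 CPM in DMI libraries. Each luteolin library lay above the DMI library of the same number, and the groups overlapped. Bax had a log2 fold change of 0.33 (95% interval -0.17 to 0.82). A fit with the replicate number as a block in the 6 libraries of this pair was chosen after seeing the data. It also gave Bax 0.33 (adjusted p = 0.0486, edgeR). Bax was the only one of the 9 genes called in that fit, against 6.58% of all tested genes. No label says that the replicate numbers mark pairs.

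The other 6 genes differed little between luteolin and DMI. Ccng1 was at 232.9, 232.7 and 237.3 CPM in luteolin libraries and at 218.9, 202.5 and 213.9 CPM in DMI libraries. Those groups did not overlap, as for 6.23% of all tested genes in that direction, and the log2 fold change was 0.15 (95% interval -0.27 to 0.57). Cdkn1a was at 116.8, 123.8 and 100.9 CPM in luteolin libraries and at 100.4, 124.0 and 84.8 CPM in DMI libraries, a log2 fold change of 0.14 (95% interval -0.20 to 0.48). Phlda3 stood at 0.22 (-0.25 to 0.69), Mdm4 at -0.11 (-0.46 to 0.23), Bbc3 at -0.14 (-0.50 to 0.23) and Sesn1 at -0.04 (-0.33 to 0.24) on the log2 scale. These intervals leave room for changes in either direction, so they do not show that luteolin left the genes as they were. The median was 0.15 over the 9 genes and -0.02 over all tested genes.

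Quercetin added to DMI was likewise compared with DMI alone, and the same DMI libraries served both comparisons. None of the 9 genes passed edgeR's test, DESeq2 called 0, and 3 had an unadjusted p under 0.05, namely Zmat3, Ccng1 and Bax, each above DMI. Over all tested genes 1.01% passed and 21.3% had an unadjusted p under 0.05. Zmat3 was at 83.7, 84.1 and 130.7 CPM in quercetin libraries, against 57.1, 59.0 and 82.6 CPM in DMI libraries. The groups did not overlap, as for 6.68% of all tested genes in that direction, and the third library was the highest of both groups. Zmat3 differed by 0.59 ± 0.19 on the log2 scale (SE), which did not pass (adjusted p = 0.115, edgeR). Its adjusted p was 0.000233 without the third induced libraries.

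Trp53 was at 91.6, 94.9 and 83.1 CPM in quercetin libraries, against 45.0, 56.2 and 94.1 CPM in DMI libraries. The first pairs were well apart, and the third DMI library reached the quercetin range. Its log2 fold change was 0.46, with a 95% interval from -0.01 to 0.94 (adjusted p = 0.244, edgeR). Leaving out the third induced libraries gave 0.91 (adjusted p = 9.26e-06), and without the third DMI library alone it was 0.83 (adjusted p = 0.00506).

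Bax was at 55.3, 68.7 and 39.1 CPM in quercetin libraries and at 29.8, 35.1 and 48.2 CPM in DMI libraries. The third library was the lowest with quercetin and the highest with DMI alone. The log2 fold change was 0.53 (95% interval 0.03 to 1.03, adjusted p = 0.208, edgeR), and 0.96 without the third induced libraries (adjusted p = 4.3e-05). Ccng1 was at 218.2, 251.6 and 420.6 CPM in quercetin libraries and at 218.9, 202.5 and 213.9 CPM in DMI libraries. The third quercetin library stood 1.79 times above the mean of its group's first pair, and the first lay inside the DMI range. Ccng1 had a log2 fold change of 0.49 (95% interval 0.07 to 0.91, adjusted p = 0.178), and 0.18 without the third induced libraries (adjusted p = 0.134).

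Phlda3 was at 91.7, 102.8 and 48.0 CPM in quercetin libraries and at 70.8, 85.6 and 69.1 CPM in DMI libraries. The third quercetin library was the lowest of all 12 for this gene, 0.494 of the mean of the first pair. Bbc3 showed the same layout, at 24.7, 23.3 and 15.4 CPM in quercetin libraries and at 21.6, 23.4 and 24.5 CPM in DMI libraries. Neither passed: the log2 fold change was 0.11 for Phlda3 (95% interval -0.36 to 0.57) and -0.13 for Bbc3 (-0.49 to 0.23). Mdm4 stood at -0.22 (-0.56 to 0.13), Cdkn1a at -0.10 (-0.44 to 0.24) and Sesn1 at 0.06 (-0.23 to 0.34). When the third induced libraries were left out 5 of the 9 genes were called, Trp53, Bax, Phlda3 and Zmat3 above and Mdm4 below DMI, against 33.4% of all tested genes in that fit.

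**Figure D3:**
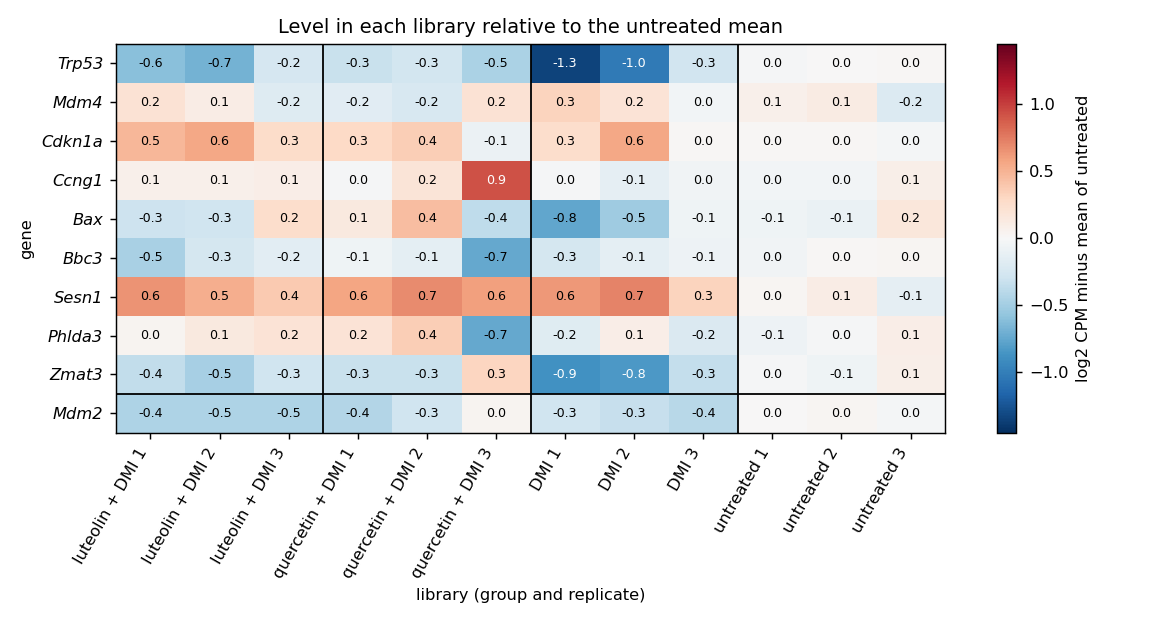
Log2 CPM of each gene in each library minus its mean over the untreated libraries, with Mdm2 below the line; columns are libraries, grouped from luteolin with DMI to untreated. Trp53 is lowest in the first and second DMI libraries, and the third quercetin library departs from the first pair of its group for Ccng1, Bax, Bbc3, Phlda3 and Zmat3.

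Set against untreated cells, Sesn1 was higher in both flavonoid groups. With luteolin Sesn1 was the only one of the 9 genes called (19.3% of all tested genes passed, 10.5% higher), at 51.6, 47.4 and 42.8 CPM against 33.5, 35.4 and 30.2 CPM in untreated libraries. The groups did not overlap, and the log2 fold change was 0.52 ± 0.13 (adjusted p = 0.0169, edgeR). This call was lost without the first luteolin library (adjusted p = 0.0864), the second luteolin library (0.0641), the first untreated library (0.0594) or the third untreated library (0.0552). Cdkn1a was at 116.8, 123.8 and 100.9 CPM with luteolin, above all untreated libraries at 84.9, 84.6 and 82.2 CPM. Its log2 fold change of 0.44 ± 0.16 did not pass (adjusted p = 0.0668, edgeR). It passed in all 8 alternative settings other than the fits that left out a single library. Among these were RLE scaling (0.0460), library totals (0.0321), no low-count filter (0.0285) and DESeq2 (0.0276). Of the 12 fits that left out a library, Cdkn1a passed in 3.

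Trp53 with luteolin lay below every untreated library, with a log2 fold change of -0.50 ± 0.22 (adjusted p = 0.129, edgeR), and Zmat3 did so too at -0.37 ± 0.19 (adjusted p = 0.182). Groups that did not overlap were thus found for 2 genes above (25% of all tested genes) and, with Bbc3, 3 genes below untreated cells (28.8% of all). Mdm4, Ccng1, Bax and Phlda3 overlapped with untreated cells, at 0.05, 0.08, -0.10 and 0.13 on the log2 scale in that order. Bbc3 was at 18.6, 21.5 and 23.1 CPM with luteolin, below the untreated libraries at 24.9, 26.0 and 26.3 CPM, with a log2 fold change of -0.29 (adjusted p = 0.250). Trp53, Cdkn1a, Bbc3, Sesn1 and Zmat3 were called against untreated cells without the third induced libraries, 5 of 9 against 44.9% of all tested genes in that fit.

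With quercetin Sesn1 was again the only call among the 9 genes (9.45% of all tested genes passed, 4.79% higher), at 48.9, 53.2 and 49.9 CPM against 33.5, 35.4 and 30.2 CPM in untreated libraries. Sesn1 rose by 0.62 ± 0.13 on the log2 scale, or 1.53-fold (adjusted p = 0.0131, edgeR). The call was lost without the first untreated library (adjusted p = 0.0604) and without the second quercetin library (0.0508). Trp53 lay below every untreated library but did not pass, at -0.35 ± 0.22 (adjusted p = 0.352). Sesn1 was thus 1 gene whose groups did not overlap above untreated cells (14.8% of all tested genes), and Trp53 and Bbc3 were 2 below (16.4% of all). Zmat3 stood at -0.08 (95% interval -0.48 to 0.32), with the third quercetin library at 130.7 CPM and the others at 83.7 and 84.1 CPM; without the third induced libraries it was -0.26 and passed (adjusted p = 0.0178). The other values were -0.05 for Mdm4, 0.20 for Cdkn1a, 0.42 for Ccng1, 0.11 for Bax, -0.28 for Bbc3 and 0.01 for Phlda3. Leaving out the third induced libraries moved most of them: Cdkn1a was then 0.39 (adjusted p = 0.00292), Bax 0.36 (0.0168) and Phlda3 0.34 (0.00887), all called, while Ccng1 was 0.15, Bbc3 -0.04 and Mdm4 -0.14, none of them called. With Sesn1 and Zmat3 this made 5 of the 9 genes, against 40.4% of all tested genes in that fit.

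Over the 4 groups Trp53 was thus highest in untreated cells, at 114.2 ± 1.03 CPM (SD, n = 3), with 89.9 ± 6.07 CPM for quercetin, 80.8 ± 13.7 CPM for luteolin and 65.1 ± 25.7 CPM for DMI alone. Neighbours in that order did not pass the test against each other. Sesn1 ran the other way, at 50.7 ± 2.27 CPM for quercetin, 48.7 ± 6.77 CPM for DMI, 47.3 ± 4.42 CPM for luteolin and 33.0 ± 2.61 CPM in untreated cells. Its 3 induced groups lay within their spread of each other.

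Luteolin was also compared with quercetin, both given with DMI, at doses that the labels do not state. None of the 9 genes differed by edgeR's test, at an unadjusted p under 0.05, or by DESeq2; over all genes 0% passed, with 8.93% at an unadjusted p under 0.05. The widest gaps were for Ccng1, at 232.9, 232.7 and 237.3 CPM with luteolin and 218.2, 251.6 and 420.6 CPM with quercetin, and for Zmat3, at 82.3, 75.0 and 86.2 CPM with luteolin and 83.7, 84.1 and 130.7 CPM with quercetin. Both gaps came mostly from the third quercetin library. Ccng1 stood at -0.34 on the log2 scale (95% interval -0.76 to 0.08) and -0.29 for Zmat3 (-0.70 to 0.11). Cdkn1a stood at 0.24 (-0.10 to 0.58), Bax at -0.20 (-0.70 to 0.29), Trp53 at -0.15 (-0.63 to 0.32), Phlda3 at 0.12 (-0.35 to 0.58), Mdm4 at 0.10 (-0.24 to 0.45), Sesn1 at -0.10 (-0.38 to 0.18) and Bbc3 at 0.00 (-0.37 to 0.36). Trp53 (-0.35) and Bax (-0.60) were lower and Mdm4 (0.36) was higher with luteolin than with quercetin when the third induced libraries were left out, 3 of 9 against 13.8% of all tested genes in that fit, while Ccng1 (-0.01) and Zmat3 (-0.09) were then near 0.

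Other genes of the p53 pathway were read from 6 lists. Their counts are to be set beside the 27.1% of all tested genes that passed for DMI against untreated (14.7% higher, 12.4% lower). Without the third induced libraries that share was 52.8%. The lists share genes: Mdm2 is in the regulator and paralog lists, and Pmaip1 in the cell death and Bcl-2 lists. Sesn2 is in the arrest, repair and metabolism list and in the paralog list, so its fall counts in both. Among 20 further targets in arrest, repair and metabolism, 4 rose and 4 fell in DMI against untreated cells, and 12 did not pass (median log2 fold change 0.08, against -0.04 over all genes). Dram1, a lysosomal protein that promotes autophagy, rose 2.90-fold to 54.0 CPM, against 18.7 CPM in untreated cells (adjusted p = 0.00439, edgeR). Btg2, an antiproliferative factor, rose 2.64-fold to 43.4 CPM, against 16.5 CPM (adjusted p = 0.00431). Plk2, a stress-induced polo-like kinase, fell by 1.87 on the log2 scale to 48.4 CPM, against 177.5 CPM (adjusted p = 0.0148). Gadd45a, a growth arrest and DNA damage gene, fell by 0.88 to 25.3 CPM, against 46.5 CPM (adjusted p = 0.00375). Plk2 was at 26.8, 23.4 and 95.0 CPM in the DMI libraries, so that the third library again lay closest to untreated cells. The Gadd45a, Btg2 and Dram1 calls held in all 12 fits that left out a library, while the Plk2 call was lost without the first DMI library (adjusted p = 0.0712), the second DMI library (0.0645) or the third untreated library (0.0509). Of the 20 genes 8 were higher and 7 lower without the third induced libraries.

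Of 8 further targets in cell death 6 could be tested; 3 fell (12.4% of all tested genes did), none rose, and 3 did not pass (median -0.68). Eda2r, a member of the tumour necrosis factor receptor family, fell by 1.40 on the log2 scale to 25.5 CPM in DMI cells, against 67.3 CPM in untreated cells (adjusted p = 0.00724, edgeR). Apaf1, the scaffold of the apoptosome, fell by 0.89 to 34.7 CPM, against 64.2 CPM (adjusted p = 0.00724). Tnfrsf10b, the mouse receptor for the death ligand TRAIL, fell by 0.47 to 24.1 CPM, against 33.2 CPM (adjusted p = 0.0452). The first pair held in all 12 fits that left out a library, while for Tnfrsf10b the adjusted p reached 0.214 without the third untreated library. Of the 6 genes 1 was higher and 4 were lower without the third induced libraries.

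Among 17 regulators and kinases of p53, 1 rose and 2 fell (median -0.18), a share below that over all tested genes. Hipk2, a kinase that phosphorylates p53, was at 614.1, 620.7 and 246.3 CPM in DMI libraries, against 32.5, 36.1 and 41.2 CPM in untreated libraries. It rose 13.5-fold (adjusted p = 0.000266, edgeR), and the third DMI library was the lowest of its group. Rpl5, a ribosomal protein that can bind Mdm2, fell by 0.48 on the log2 scale (adjusted p = 0.0320), and Trp53bp1, a DNA damage adaptor, fell by 0.38 (adjusted p = 0.0401). Both of these were lost when single DMI or untreated libraries were left out, with adjusted p up to 0.142 for Rpl5 and 0.176 for Trp53bp1, while Hipk2 passed in all 12 such fits. The counts were 2 higher and 7 lower without the third induced libraries.

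The 14 paralogs of the 9 genes gave 10 that could be tested, with 1 higher and 2 lower (median -0.22). Ccng2, the paralog of Ccng1, rose by 0.56 ± 0.13 on the log2 scale to 139.4 CPM in DMI cells, against 94.4 CPM in untreated cells (adjusted p = 0.00878, edgeR). Sesn2 fell by 0.52 ± 0.11 to 82.5 CPM, against 118.1 CPM (adjusted p = 0.00568), whereas its paralog Sesn1 rose. Cdkn1b, which encodes the cell-cycle inhibitor p27 related to p21, fell by 0.60 ± 0.13 to 105.6 CPM, against 160.2 CPM (adjusted p = 0.00638). In the Bcl-2 family 10 of 14 genes could be tested, with 1 higher and 1 lower (median 0.05). Bok, a Bax-like protein, rose 13.6-fold to 16.6 CPM in DMI cells, against 1.21 CPM in untreated cells (adjusted p = 0.000374), and Bcl2l11, the BH3-only protein Bim, fell by 0.37 (adjusted p = 0.0450). The calls of Sesn2, Cdkn1b and Bok held in all 12 fits that left out a library. That of Ccng2 was lost without the first DMI library (adjusted p = 0.0503), and that of Bcl2l11 in several fits, with adjusted p up to 0.184 without the second DMI library. When the third induced libraries were left out 2 paralogs were higher and 4 lower, and 1 Bcl-2 family gene was higher and 2 lower.

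Of 12 partners of p21 and proliferation genes, 1 rose and 3 fell in DMI cells (median -0.25). Ccnd1 (cyclin D1) fell by 1.07 on the log2 scale to 71.3 CPM, against 149.5 CPM in untreated cells (adjusted p = 0.0457, edgeR). Cdk4, its kinase, fell by 0.68 (adjusted p = 0.0307), and Top2a, a topoisomerase of dividing cells, fell by 0.77 (adjusted p = 0.0453). Ccne1 (cyclin E1) rose 2.00-fold to 38.0 CPM, against 19.0 CPM (adjusted p = 0.0108). The summed level of the 12 genes was 697.1, 688.7 and 894.2 CPM in DMI libraries, against 1062, 1066 and 1092 CPM in untreated libraries. Each of these 4 calls was lost in some fits that left out a library, with the highest adjusted p at 0.179 for Ccnd1 and 0.138 for Cdk4 without the first DMI library, and at 0.164 for Top2a and 0.0558 for Ccne1 without the second. Of the 12 genes 1 was higher and 5 were lower without the third induced libraries.

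**Figure D4:**
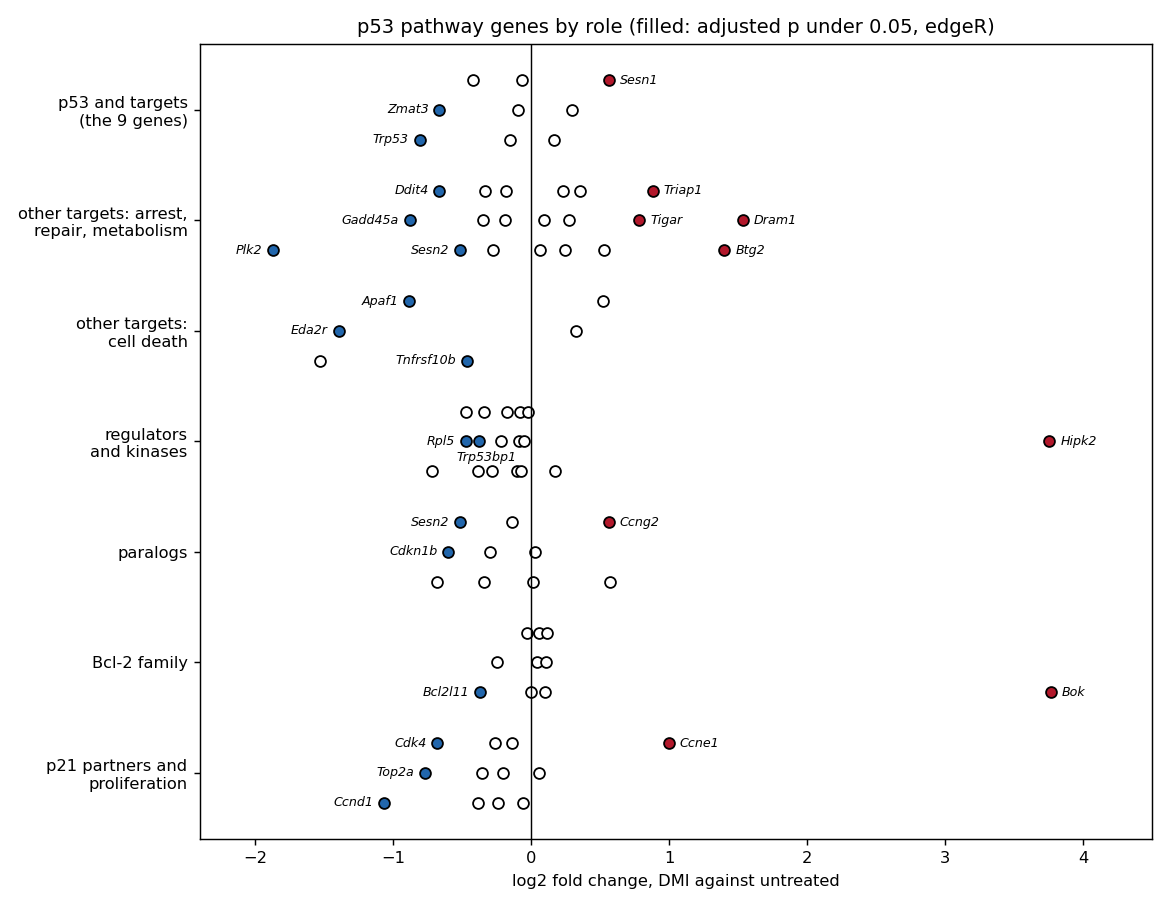
Log2 fold change of DMI against untreated for each tested gene of the p53 pathway, by role; filled points (red higher, blue lower) have an adjusted p under 0.05 in edgeR's quasi-likelihood test and are named. Hipk2 and Bok lie far to the right at 3.75 and 3.76, and the filled points of the cell death list, Eda2r, Apaf1 and Tnfrsf10b, are all to the left of 0.

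The flavonoids moved few of these genes past the threshold. Luteolin against DMI gave 0 calls in each of the 6 lists by edgeR. At an unadjusted p under 0.05 were 3 of 20 arrest, repair and metabolism targets and 2 of 10 Bcl-2 family genes. Of 12 p21 partners and proliferation genes 1 was, and the share over all tested genes was 6.09%. Quercetin against DMI gave 1 call, Hipk2, at 183.3, 62.9 and 93.9 CPM in quercetin libraries and at 614.1, 620.7 and 246.3 CPM in DMI libraries. Every quercetin library was below every DMI library, and Hipk2 fell by 2.12 ± 0.43 on the log2 scale (adjusted p = 0.0484, edgeR). This call was close to the threshold and was lost in 9 of 12 fits that left out a library: the adjusted p was 0.221 without the first DMI library and 0.219 without the second, and 6.86e-05 without the third induced libraries. Its level with quercetin was still above that of untreated cells, 3.10-fold. Without the third induced libraries quercetin against DMI gave 6 higher and 4 lower among the arrest, repair and metabolism targets, 2 and 0 in cell death, 4 and 2 among regulators, 1 and 1 among paralogs, 4 and 1 in the Bcl-2 family and 4 and 3 among p21 partners, with 33.4% of all tested genes called. For luteolin against DMI the same fit gave 2 and 1, 1 and 0, 0 and 0, 0 and 0, 1 and 1, and 2 and 0 in those lists, with 10.4% of all tested genes called. Among the 20 further arrest, repair and metabolism targets 9 had an unadjusted p under 0.05 for quercetin against DMI and none passed after adjustment. The share over all tested genes was 21.3%. In the other lists the counts were 3 of 6 in cell death, 3 of 17 regulators and 2 of 10 paralogs. They were 2 of 10 in the Bcl-2 family and 3 of 12 among p21 partners and proliferation genes. The most abundant of the 20 arrest, repair and metabolism targets was Trp53inp1, a p53-induced nuclear protein. It was at 125.4 CPM with quercetin and 88.5 CPM with DMI alone (log2 fold change 0.50, adjusted p = 0.107, edgeR). Plk2 stood at 1.18 (adjusted p = 0.185). The most abundant genes of the other lists without a call stood at 0.30 (Apaf1), 0.82 (Eda2r), 0.13 (Mdm2) and 0.19 (Sesn3). Mcl1 stood at 0.05, Bcl2l11 at 0.19, Cdk4 at 0.39 and Ccnd1 at 0.97. Adjusted p for these ran from 0.157 to 0.831 (edgeR).

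Profiles over the 12 libraries were also compared by the root mean square difference of centred log2 CPM over 10196 genes with a mean of at least 5 CPM, where 0 means the same shape. The genes nearest to Trp53 were Loxl3 (0.081), Ajuba (0.085) and Axl (0.103), against a median of 0.446 over all those genes. Genes near to Bax included Rpl19 (0.086) and Rpl27a (0.087), which encode ribosomal proteins. Ccng1 lay nearest to Rab1a (0.065), Cdkn1a to Actr1a (0.081), Mdm4 to Ccnt2 (0.074) and Bbc3 to Map7d1 (0.068). Sesn1 lay nearest to Mrpl36 (0.079), Phlda3 to Brms1 (0.078) and Zmat3 to Tmem181a (0.076). None of the 9 genes was among the 3 nearest of another. The nearest of the 9 to Trp53 was Bax (0.245), with 613 other genes nearer.

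The authors' deposited table of comparisons called 3 of the 9 genes for DMI against untreated, 1 higher and 2 lower (21.5% of its genes with an adjusted p). It called 4 for luteolin against untreated (23.5% of its genes), Cdkn1a and Sesn1 higher and Trp53 and Zmat3 lower. Of those 4 only Sesn1 passed in the edgeR fit of all 12 libraries. For quercetin against untreated it called 1, Sesn1 (7.65% of its genes). For luteolin or quercetin against DMI and for luteolin against quercetin it called 0 of the 9. Counting could not fully separate some neighbours: Cdkn1a shares 273 exonic bases with AC167363.2 on the opposite strand, and Bax shares 192 with Gm45808 on the same strand. The pseudogenes Trp53-ps and Mdm4-ps had at most 42 and 2 counts in any library.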

How the data were processed

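RNA from 12 libraries of 3T3-L1 cells was sequenced, 3 per group; sample titles give groups and replicate numbers. Raw counts per gene come from the authors' deposited table, with featureCounts 1.5.0-p3 and CASAVA 1.8.2 listed in the submitters' processing notes. No aligner is named in the sources used here. FPKM values deposited by the authors served only to rank levels. The authors' own log2 fold changes and p-values stand beside them; the tool behind those is not given here. A further 12 columns of group means by the authors were not used. Although mm9 is the build in the notes, 98.3% of gene positions, and those of all 9 genes, equal GENCODE M21 on GRCm38, which the coordinates follow. Promoter sequences are from RefSeq (GRCm38.p6).

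The counts went through edgeR 4.0.16 (R 4.3.3): filterByExpr kept 14855 genes, scaling was by TMM, and 1 term per group was fitted over all 12 libraries. Benjamini-Hochberg adjustment ran over all tested genes of a comparison, with a threshold of 0.05. DESeq2 1.42.0 served as an alternative. The fit was tested on simulated data. CPM are counts per 1000000 of TMM-adjusted totals, with a prior count of 2 for log2 CPM in profiles. Depth was 14522182 to 19436796 counts per library, and the 9 genes had at least 251 counts in every library. Every pair of replicates differed by more than sampling noise, with 2.68 as the lowest chi-square per gene.

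The 9 genes, the gene lists and the alternatives were chosen with earlier results of these data known. All 9 genes are named in every comparison. List genes are named for DMI against untreated and for quercetin against DMI. From each of 6 lists up to 4 genes that passed with a mean of at least 1 CPM are named by size of change. Where none passed, up to 2 of the most abundant are named. Mdm2 is named in both comparisons. Same-numbered luteolin and DMI libraries deviated together from their group means (r = 0.261, 0.337 and 0.59), above the limit of 0.1 for pairing. Differently numbered ones among the first pair did so as well (luteolin 2 with DMI 1 at 0.367, luteolin 1 with DMI 2 at 0.226), and the third library of each group deviated against the first pair of the other (-0.472 to -0.326 and -0.463 to -0.416). No label says that a number marks a shared culture. In the other comparisons not every pair was above it.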

Additional observations from a re-analysis of the deposited data

How the results depend on the processing

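Values were recomputed under RLE scaling, library totals, no low-count filter, DESeq2, only the 6 libraries of the pair, the replicate number as a block (over all 12 libraries, or in the 6 of the pair, a fit chosen after seeing the data), without the third induced libraries, and without each library in turn. For DMI against untreated 3 of the 9 genes were called, 2 in the 6 libraries of the pair, 6 without the third induced libraries and 0 to 4 without single libraries. Luteolin against DMI gave 0, but 1 with the replicate block in the 6 libraries and 2 without the third induced libraries. Quercetin against DMI gave 0, but 2 with no low-count filter, 1 with the replicate block over all 12 libraries, 5 without the third induced libraries and 0 to 3 without single libraries. For luteolin against untreated the count was 1; it was 2 under RLE scaling, library totals, no filter, DESeq2 and the replicate block over all 12 libraries, 4 in the 6 libraries of the pair with or without the block, 5 without the third induced libraries and 0 to 3 without single libraries. For quercetin against untreated it was 1, with 5 and 0 to 2 under the last pair of settings. Luteolin against quercetin gave 0, and 3 without the third induced libraries. The causes were not tested. Counts over all genes without the third induced libraries were 7970 for DMI against untreated (4024 with them), 1566 for luteolin (3) and 5049 for quercetin against DMI (150), 6786 for luteolin (2865) and 6108 for quercetin against untreated (1404), and 2081 for luteolin against quercetin (0). DESeq2 called 956 genes and no filter 1737 for quercetin against DMI, and 48 and 363 for luteolin against DMI; no filter called 2357 for quercetin against untreated and 450 for luteolin against quercetin. In the 6 libraries of the pair alone 5939 were called for luteolin against untreated and 0 for each flavonoid against DMI. Library totals gave 59 for quercetin against DMI. The replicate block over all 12 libraries gave 1395 for quercetin against DMI, and that in the 6 libraries gave 929 for luteolin against DMI.

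Direction changed for uncalled values near 0. Without the third induced libraries Phlda3 stood at 0.002 for DMI against untreated and -0.187 for luteolin against quercetin, and Bbc3 and Sesn1 at 0.122 and -0.013 for quercetin against DMI. Sesn1 for luteolin against DMI was 0.024 with library totals. For quercetin against untreated Mdm4 was 0.001 with library totals and 0.009 with no filter, and Phlda3 was -0.023 and -0.045 with the replicate block over 12 and in 6 libraries. For luteolin against quercetin Bbc3 was 0.008, 0.015, 0.006, 0.005 and 0.026 under RLE scaling, library totals, DESeq2, the 6 libraries alone and those with the block.

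Over the fits that left out single libraries, these log2 fold changes, uncalled in the fit of all 12 libraries, spanned 0. Phlda3 for quercetin against untreated passed at 1 end of its range, 0.344 without the third quercetin library (adjusted p = 0.0454, edgeR). For DMI against untreated Ccng1 ran from -0.089 to 0.009. For luteolin against DMI Sesn1 ran from -0.151 to 0.039. For quercetin against DMI the ranges were -0.219 to 0.056 (Cdkn1a), -0.255 to 0.065 (Bbc3), -0.049 to 0.14 (Sesn1) and -0.103 to 0.387 (Phlda3). Against untreated cells luteolin gave -0.036 to 0.156 (Mdm4) and -0.3 to 0.031 (Bax), and quercetin gave -0.135 to 0.031 (Mdm4), -0.095 to 0.363 (Bax), -0.198 to 0.344 (Phlda3) and -0.259 to 0.032 (Zmat3). For luteolin against quercetin they were -0.41 to 0 (Bax), -0.188 to 0.121 (Bbc3) and -0.15 to 0.326 (Phlda3). The order of levels per length was the same in FPKM, a measure built in the same way, while 7 of the 9 genes changed rank by CPM. Each gene's nearest profile was the same at a floor of 1 CPM.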
